A study of Homo sapiens with 8 samples.

Results

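Collagens are the main structural proteins of the extracellular matrix, the scaffold that surrounds cells. Of the 44 genes on the list of human collagen chains used here, 41 carried a cluster (a set of array probes that reads one gene) in the annotation used. They were taken by symbol, COL followed by a type number, A and a chain number, from 17709 clusters annotated to 1 gene. None of the 41 had more than 1 cluster. The chains divide into 10 fibrillar collagens, 9 network collagens, 5 beaded-filament collagens, 10 fibril-associated (FACIT) collagens, 3 transmembrane collagens and 4 others. COL3A1, COL7A1 and COL17A1 were not analysed here.

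The samples were 8 tumours, each read on 1 array from total RNA, grown in nude mice, which lack a thymus, from SK-OV-3, an established human ovarian cancer cell line. In 4 of them the cells carried pIND_BORA, a vector for overexpressing BORA, a cofactor that helps activate the mitotic kinase PLK1. The other 4, called EV, carried the empty vector. All tumours share the line and the host, the labels state neither the mice's age nor the time of growth, and no label says that each tumour came from its own animal, so the p-values below measure only the spread between these samples. A tumour of this kind also holds mouse cells, and whether mouse collagen RNA bound the human probes was not tested.

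A collagen chain is made in the endoplasmic reticulum, where prolines and lysines are hydroxylated and chains wind into a triple helix under the care of collagen-specific chaperones. Fibrillar collagens form the cables of connective tissue. Type IV collagens form the sheet-like network of the basement membrane under epithelia and around vessels, type VI forms beaded filaments, and fibril-associated collagens sit on the surface of cables. In carcinomas much of the fibrillar collagen usually comes from fibroblasts of the stroma, while tumour cells can also make collagen chains themselves.

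BORA gave the check of the labels: its signal was 12.57, 12.55, 12.91 and 13.00 in the BORA tumours and 6.16, 6.15, 6.89 and 7.32 in the EV tumours. That is a log2 difference of 6.13 (SE 0.27, limma adjusted p = 2.38e-05). All signals are on the deposited log scale, taken as log2. EV replicate 1 stood apart, with correlations of 0.943 to 0.954 over all named clusters against 0.981 to 0.992 among the other 7 arrays, so each comparison was also made on 7 arrays, without it. A signal was called above background when it was brighter than 95% of the 612 negative control rows on that array, a mark that lay between 7.62 and 8.24.

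The promoter stretches are shown because they belong to the collagen chains that differed most between the groups and that the RefSeq promoter table (GRCh38.p14) holds. COL4A1 and COL4A2 lie head to head on chromosome 13 and share the 126 bases between their starts, chr13:110307158-110307283, printed on the plus strand, which is the strand of COL4A2. The other stretches are the 250 bases before a start: COL12A1 at chr6:75206054-75206303 on the minus strand, COL18A1 at chr21:45404915-45405164 and, for its other start, at chr21:45455272-45455521, both on the plus strand, and COL6A3 at chr2:237414165-237414414 on the minus strand. Capitals mark the CCAAT box (CCAAT) and the GC box (GGGCGG), searched on both strands.
COL4A1-COL4A2 interval: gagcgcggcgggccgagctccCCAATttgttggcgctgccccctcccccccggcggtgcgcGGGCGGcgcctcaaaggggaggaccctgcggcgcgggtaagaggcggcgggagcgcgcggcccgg
COL12A1: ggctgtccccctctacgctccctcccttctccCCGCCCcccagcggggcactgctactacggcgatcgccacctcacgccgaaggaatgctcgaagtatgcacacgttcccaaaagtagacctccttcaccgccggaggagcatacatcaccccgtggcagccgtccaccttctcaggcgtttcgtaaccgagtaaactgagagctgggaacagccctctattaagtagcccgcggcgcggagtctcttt
COL18A1 start 1: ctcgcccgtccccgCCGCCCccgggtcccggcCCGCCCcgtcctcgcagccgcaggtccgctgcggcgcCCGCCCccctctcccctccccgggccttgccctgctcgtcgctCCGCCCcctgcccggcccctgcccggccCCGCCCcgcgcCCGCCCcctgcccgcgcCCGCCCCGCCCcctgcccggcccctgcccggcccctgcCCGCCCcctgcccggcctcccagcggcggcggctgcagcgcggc
COL18A1 start 2: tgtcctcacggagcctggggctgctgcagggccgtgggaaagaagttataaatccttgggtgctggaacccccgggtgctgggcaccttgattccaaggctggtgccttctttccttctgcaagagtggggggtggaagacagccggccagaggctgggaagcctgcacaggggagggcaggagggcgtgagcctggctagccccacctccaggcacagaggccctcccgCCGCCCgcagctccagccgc
COL6A3: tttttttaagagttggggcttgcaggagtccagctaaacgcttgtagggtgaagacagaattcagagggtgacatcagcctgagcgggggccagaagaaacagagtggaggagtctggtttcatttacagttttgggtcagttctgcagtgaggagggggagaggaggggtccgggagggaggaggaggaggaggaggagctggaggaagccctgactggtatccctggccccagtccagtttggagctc
The interval shared by COL4A1 and COL4A2 was 80.2% G and C and held 1 CCAAT box and 1 GC box. Among the 126 bases before each of the 35116 starts in the table, 21.1% held a CCAAT box and 34.6% a GC box. The first COL18A1 start held 9 GC boxes in sequence that was 88.4% G and C, and the stretch before COL6A3 held neither motif. The median G and C share over all starts was 60.3% for 126 bases and 58.0% for 250 bases. Over 250 bases, 23 of 42 collagen stretches held a GC box (54.8%, against 42.6% of all) and 11 held a CCAAT box (26.2%, against 32.0%). The TATA box (TATAAA) and the ETS core (CCGGAA) were searched as well. They were in 6 (14.3%, against 10.7%) and 0 (against 14.5%) of the collagen stretches. These 42 stretches came from 30 of the 41 genes. A match describes letters only, and the arrays measured no binding.

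No collagen gene passed the test across all named clusters. With limma and Benjamini-Hochberg adjustment at 0.05, 0 of 41 were called higher and 0 lower in BORA tumours, on 8 and on 7 arrays. The background was as sparse: 0.102% of all clusters were called higher and 0% lower on 8 arrays, and 0.435% and 0.0791% on 7. At an unadjusted p under 0.05, 6 of 41 were higher (14.6%, against 7.37% of all clusters) and 0 lower (against 7.17%) on 8 arrays. On 7 arrays 7 were higher (17.1%, against 7.7%) and 4 lower (9.76%, against 7.62%). In 5 genes, COL4A1, COL4A2, COL5A2, COL12A1 and COL18A1, all 4 BORA tumours lay above all 4 EV tumours (12.2%, against 4.45%). COL9A2 alone showed the opposite order (2.44%, against 4.91%).

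**Figure D1:**
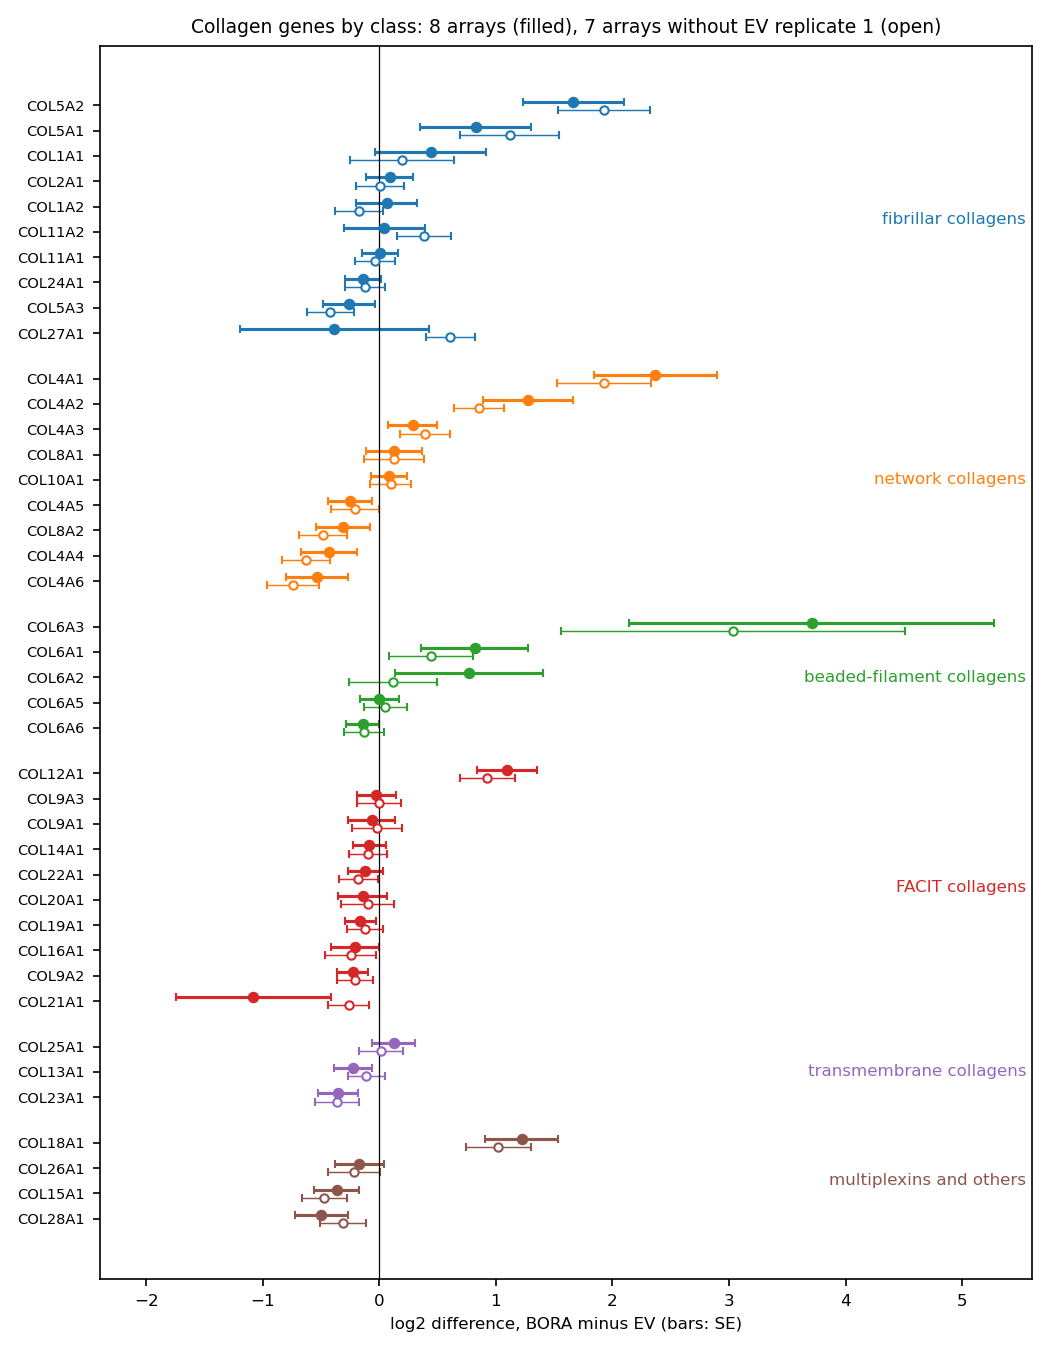
Log2 difference, BORA minus EV, of each of the 41 collagen genes by class, on 8 arrays (filled points) and on 7 arrays without EV replicate 1 (open points), with bars of 1 SE. Most genes sit near 0, and on 8 arrays COL6A3, COL4A1, COL5A2, COL4A2, COL18A1 and COL12A1 sit furthest to the right.

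Over all 41 collagens, most of them at background, the differences lay on both sides of 0. The difference was above 0 for 18 of 41 genes (43.9%, against 46.6% of all clusters) and below 0 for 23 (56.1%, against 53.4%), and the median log2 difference was -0.066, beside -0.026 over all clusters. On 7 arrays 18 were above 0 (against 46.1%) and 23 below (against 53.9%), and the medians were -0.040 and -0.029. By class, the median on 8 arrays was 0.052 for fibrillar, 0.083 for network, 0.77 for beaded-filament and -0.13 for fibril-associated chains. It was -0.22 for transmembrane chains and -0.27 for the remaining class. On 7 arrays the beaded-filament median was 0.12.

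The collagens were sorted by the arrays on which their signal was above background. The signal was above background on all 8 arrays for 10 collagens (COL1A1, COL1A2, COL2A1, COL27A1, COL4A2, COL6A1, COL6A2, COL12A1, COL23A1 and COL18A1), whose log2 differences ran from -0.39 to 1.28. It was above background on some arrays for COL5A1, COL5A2, COL4A1 and COL6A3, with differences of 0.83 to 3.71. Each of these 4 passed on more BORA than EV arrays, so the sorting itself favours differences above 0 and the range is a description only. For 27 collagens the signal was above background on no array, so their signals could not be told from those of the negative controls. Each BORA array had 13 or 14 collagens above background and each EV array 10 to 12, and these counts vary only through the same 4 genes. Over all named clusters the share above background was 38.6% to 44.3% on BORA arrays and 36.3% to 40.9% on EV arrays.

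**Figure D2:**
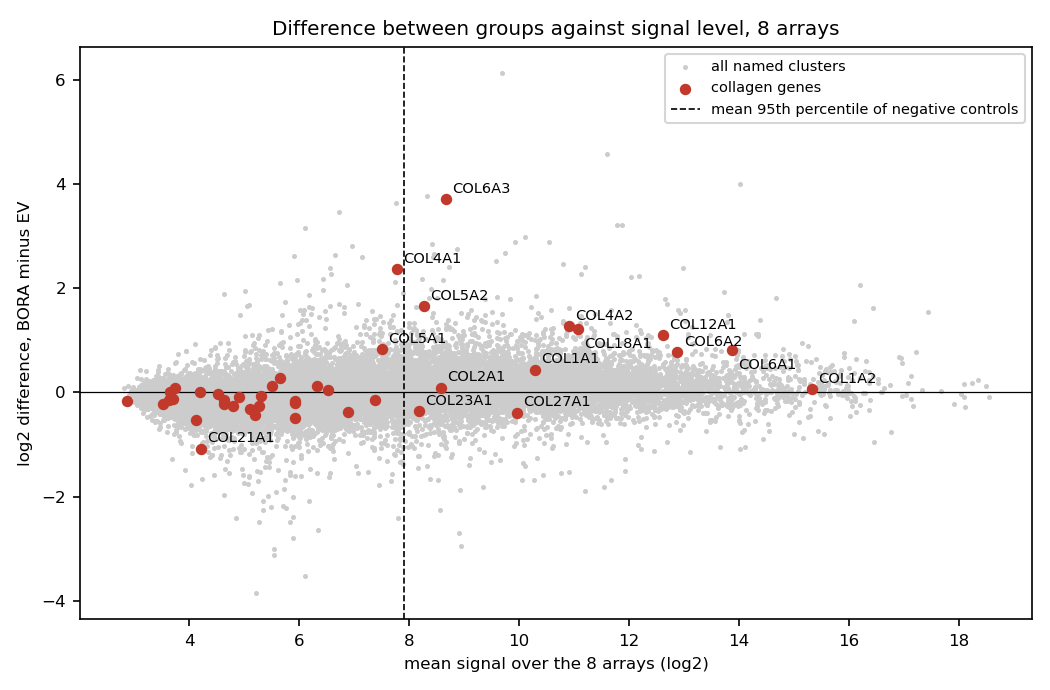
Log2 difference (BORA minus EV, 8 arrays) of each collagen against its mean signal over the 8 arrays, in red over all named clusters in grey, with the mean negative-control percentile of 7.91 as a dashed line. Of the 12 collagens to the right of the mark 10 lie above 0, and of the 29 to its left 21 lie below 0. Of all named clusters, 64.6% of those to the right lie above 0 and 65.8% of those to the left below 0.

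Brighter collagens lay mostly above 0 and dimmer ones mostly below, as did brighter and dimmer clusters in general. Among the 12 collagens whose mean signal over the 8 arrays exceeded 7.91, 10 had a difference above 0 (83.3%) with a median of 0.79, beside 64.6% and 0.11 for all 7217 such clusters. This mean spans both groups, and COL5A2 and COL6A3 passed it through the BORA tumours, since their EV means were 7.45 and 6.82, so the count and the median are given as a description only. Among the 29 dimmer collagens, 21 were below 0 (72.4%), beside 65.8% of all 10492 such clusters. After quantile normalization 16 of the 29 were below 0 (55.2%, beside 53.7% of all dimmer clusters). Of the 12 brighter ones 4 were then below 0 (33.3%, beside 50.5% of all brighter clusters), and their median was 0.69, beside -0.0033.

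Of the basement membrane chains, COL4A1 and COL4A2 were brighter in BORA tumours. They encode the α1 and α2 chains that assemble into the common type IV network. COL4A1 read 8.88, 9.15, 9.40 and 8.44 in the BORA tumours and 5.28, 7.14, 5.95 and 8.04 in the EV tumours. The groups did not overlap, and the signal was above background in all 4 BORA tumours and in 1 EV tumour. The log2 difference was 2.37 (SE 0.53, 95% interval 1.18 to 3.55), with an adjusted p of 0.141 in limma on 8 arrays. On 7 arrays it was 1.93, with a limma adjusted p of 0.0699. The limma adjusted p on 7 arrays became 0.0114 with EV replicate 4, the brightest EV tumour, left out as well. With EV replicate 3 left out instead, the difference was 1.38. The limma adjusted p was under 0.05 in 2 of 16 alternative runs on 7 arrays and ran up to 0.318. Leaving out the brightest EV tumour can only raise the difference, so the 0.0114 is a description only. Since 3 EV tumours were at background, the size of this difference is uncertain.

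COL4A2 read 11.50, 11.47, 11.61 and 11.62 in the BORA tumours and 9.02, 11.23, 10.35 and 10.49 in the EV tumours. Its 4 BORA values lay within a narrow band (mean 11.55 ± 0.076, SD, n = 4), and the EV values spread more widely (10.27 ± 0.92, SD, n = 4), with EV replicate 1 the lowest. The log2 difference was 1.28 (SE 0.38, 2.42-fold, limma adjusted p = 0.222). Without EV replicate 1 it was 0.86 (limma adjusted p = 0.106), so the linear fold went from 2.42 to 1.81. With EV replicate 2, the brightest EV tumour, left out as well it was 1.13 (limma adjusted p = 0.039). With EV replicate 3 left out instead it was 0.69. The limma adjusted p was under 0.05 in 1 of 17 alternative runs on 7 arrays and ran up to 0.312. Leaving out the brightest EV tumour can only raise the difference, so the 0.039 is a description only.

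The other type IV chains form the networks of specialised membranes such as those of the kidney glomerulus, and none of them was above background. COL4A3 and COL4A4 also lie head to head, with 418 bases between their starts, as do COL4A5 and COL4A6, with 379 from the nearer of the starts listed for COL4A6. COL4A4 read 4.72, 4.65, 5.30 and 5.23 in BORA tumours and 4.81, 5.78, 5.59 and 5.46 in EV tumours. COL4A6 read 3.90, 3.35, 4.002 and 4.18 against 3.78, 4.72, 4.26 and 4.80. Both were lower in every BORA tumour than in EV replicates 2 to 4, with differences on 7 arrays of -0.63 (limma adjusted p = 0.189) and -0.74 (limma adjusted p = 0.164). COL8A2, a short-chain network collagen, read 5.01, 4.96, 4.95 and 4.89 against 4.76, 5.43, 5.88 and 4.99, and its difference on 7 arrays was -0.48 (limma adjusted p = 0.303). These 3 genes give signals at the floor of the array. COL4A3, COL4A5, COL8A1 and COL10A1 differed by -0.25 to 0.29 on 8 arrays.

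**Figure D3:**
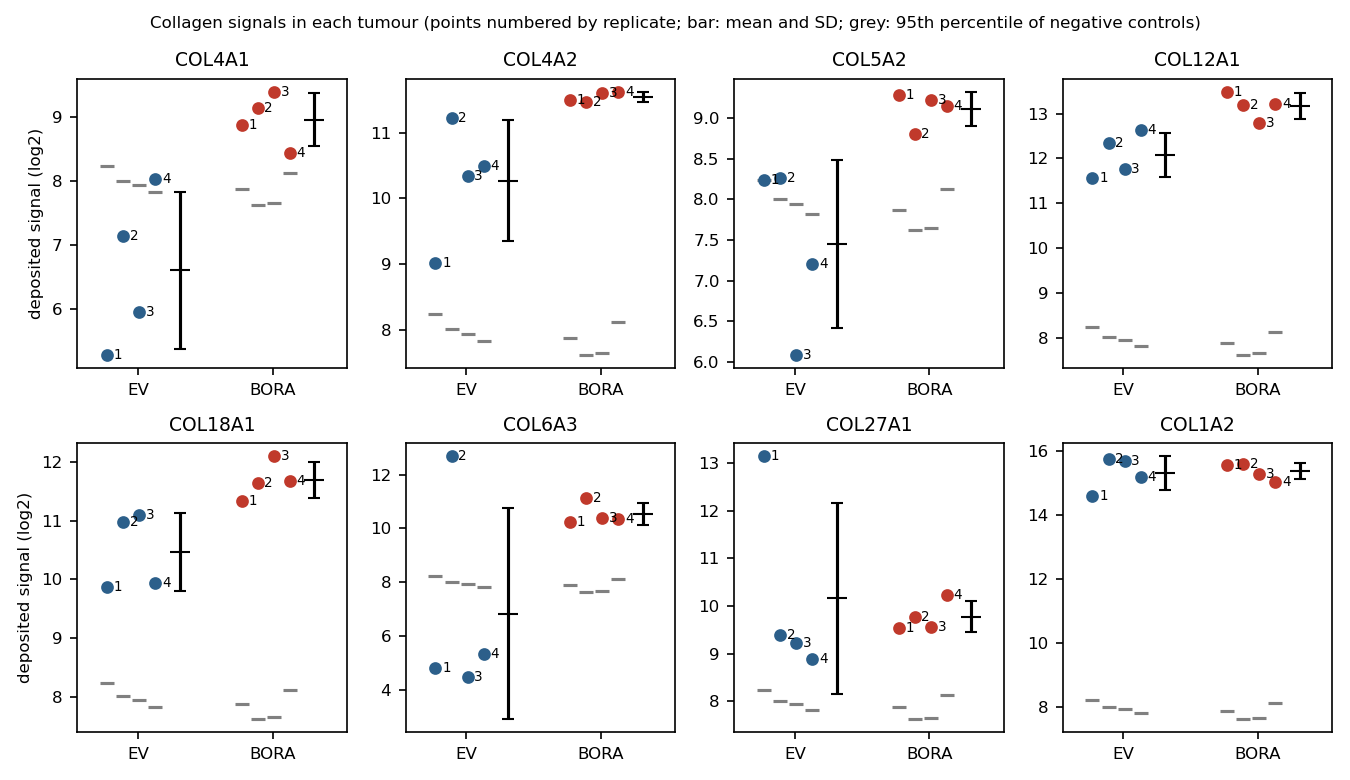
Signal (log2 scale) of individual collagen genes in each BORA and EV tumour, 1 numbered point per replicate, with the mean and SD of each group as a bar and that array's negative-control percentile as a grey mark. COL4A1, COL4A2, COL5A2, COL12A1 and COL18A1 show BORA points above all EV points, and COL6A3 shows 1 EV point at 12.68 above all others.

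COL6A3 had the largest difference of all collagens and the least even one. It encodes the long α3 chain of type VI collagen, whose cleaved end is the peptide endotrophin. The signal was 10.25, 11.14, 10.39 and 10.35 in the BORA tumours and 4.80, 12.68, 4.49 and 5.32 in the EV tumours. EV replicate 2 was thus the brightest of all 8, while the other EV tumours were at background. The log2 difference on 8 arrays was 3.71 (SE 1.57, 95% interval 0.20 to 7.22), with a limma adjusted p of 0.326, and on 7 arrays 3.04 (limma adjusted p = 0.360). Leaving out EV replicate 2 raised it to 5.66 and the limma adjusted p became 0.000154. Leaving out the brightest EV tumour can only raise the difference, so that p is a description only. In the other alternative runs on 8 arrays the limma adjusted p ran up to 0.578. On 7 arrays the difference was 1.53 with EV replicate 3 left out as well, and 1.95 with EV replicate 4 left out.

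The partner chains of COL6A3 were measurable in every EV tumour. COL6A1, the α1 chain, read 13.34, 14.76, 14.55 and 14.51 in BORA tumours and 12.36, 14.47, 13.89 and 13.18 in EV tumours. COL6A2, the α2 chain, read 12.21, 13.65, 13.71 and 13.51 against 10.55, 13.73, 13.23 and 12.49. Both were bright in every tumour and the groups overlapped. EV replicate 1 was the lowest for both, and EV replicate 2 was the highest EV tumour for both, in COL6A2 also above every BORA tumour. The differences were 0.82 (limma adjusted p = 0.438) and 0.77 (limma adjusted p = 0.592) on 8 arrays, and 0.45 and 0.12 on 7. COL6A5 and COL6A6 stayed at or below 3.95 in every tumour.

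Among the fibrillar chains, COL5A2 differed most. Type V collagen is a minor partner that nucleates type I cables and sets their width. COL5A2 read 9.28, 8.81, 9.22 and 9.15 in the BORA tumours and 8.24, 8.27, 6.09 and 7.20 in the EV tumours. The groups did not overlap, and 2 EV tumours were above background. The log2 difference was 1.66 (SE 0.43, limma adjusted p = 0.183), and 1.93 on 7 arrays (limma adjusted p = 0.0665). With EV replicate 2, the brightest EV tumour, left out as well it was 2.47 (limma adjusted p = 0.0103). With EV replicate 3 left out instead it was 1.38. The limma adjusted p was under 0.05 in 1 of 17 alternative runs on 7 arrays and ran up to 0.315. Leaving out the brightest EV tumour can only raise the difference, so the 0.0103 is a description only. COL5A1, which pairs with COL5A2, read 7.30, 8.42, 7.996 and 7.97 against 7.96, 7.24, 7.61 and 5.56. Its values overlapped between the groups, only 2 BORA tumours were above background, and the difference was 0.83 on 8 arrays (limma adjusted p = 0.451) and 1.12 on 7 (limma adjusted p = 0.248).

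The type I chains, the main collagen of connective tissue, were bright and overlapped between the groups. COL1A1 read 10.47, 10.88, 10.67 and 10.04 in BORA tumours and 9.33, 11.24, 10.78 and 8.94 in EV tumours. COL1A2 read 15.55, 15.59, 15.26 and 15.04 against 14.59, 15.73, 15.68 and 15.19. The differences were 0.44 (95% interval -0.63 to 1.51, limma adjusted p = 0.688) and 0.063 (95% interval -0.53 to 0.65, limma adjusted p = 0.928). COL2A1, the cartilage collagen, differed by 0.091.

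COL27A1, a fibrillar chain of cartilage and other tissues, turned on EV replicate 1. It read 9.54, 9.77, 9.55 and 10.24 in the BORA tumours and 13.15, 9.38, 9.23 and 8.88 in the EV tumours. On 8 arrays the difference was -0.39 (limma adjusted p = 0.847). Without EV replicate 1 every BORA tumour lay above every EV tumour and the difference was 0.61 (limma adjusted p = 0.215). It was the sixth gene with that order on 7 arrays, where 6 of 41 (14.6%, against 6.66% of all clusters) showed it and 4 of 41 showed the reverse (9.76%, against 7.68%). The remaining fibrillar chains, COL5A3, COL11A1, COL11A2 and COL24A1, were above background in no tumour and differed by -0.26 to 0.041.

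COL12A1, a fibril-associated collagen that links cables to their surroundings, was bright in every tumour. It read 13.49, 13.20, 12.79 and 13.22 in the BORA tumours and 11.56, 12.34, 11.76 and 12.64 in the EV tumours. The lowest BORA value, in replicate 3, lay just above the highest EV value, in replicate 4. The log2 difference was 1.10 (SE 0.26, 2.14-fold, 95% interval 1.44 to 3.20-fold), with a limma adjusted p of 0.153. On 7 arrays it was 0.93 (limma adjusted p = 0.110).

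The other 9 fibril-associated chains were above background in no tumour. COL21A1 read 3.51, 3.47, 3.96 and 3.77 in BORA tumours and 7.20, 3.98, 4.03 and 3.80 in EV tumours, so its difference of -1.08 (limma adjusted p = 0.481) came down to -0.26 without EV replicate 1. COL9A2 read 4.45, 4.41, 4.65 and 4.56 against 4.81, 4.65, 4.82 and 4.72, a difference of -0.23 (limma adjusted p = 0.444). Its highest BORA value and lowest EV value were both 4.65 after rounding.

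COL18A1, a heparan sulfate-bearing collagen of basement membranes whose cleaved end is endostatin, read 11.34, 11.64, 12.10 and 11.68 in the BORA tumours. In the EV tumours it read 9.86, 10.97, 11.10 and 9.94. Every tumour was above background and the groups did not overlap. The log2 difference was 1.22 (SE 0.31, 2.33-fold, limma adjusted p = 0.176), and 1.02 on 7 arrays (limma adjusted p = 0.131). With EV replicate 4 left out as well it was 0.66. Its relative COL15A1 read 6.73, 6.80, 6.41 and 6.87 against 6.75, 7.52, 7.02 and 6.98, below background in every tumour, with a difference of -0.37 on 8 arrays and -0.47 on 7 (limma adjusted p = 0.282). COL26A1 and COL28A1 differed by -0.17 and -0.50, also at background.

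Of the 3 transmembrane collagens measured, COL23A1 alone was above background. It read 7.88, 7.78, 7.91 and 8.45 in BORA tumours and 8.33, 8.38, 8.41 and 8.31 in EV tumours. In 3 of the BORA tumours it lay below every EV tumour, and BORA replicate 4 lay above them all. The difference was -0.35 (limma adjusted p = 0.374). COL13A1 and COL25A1 differed by -0.22 and 0.12.

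**Figure D4:**
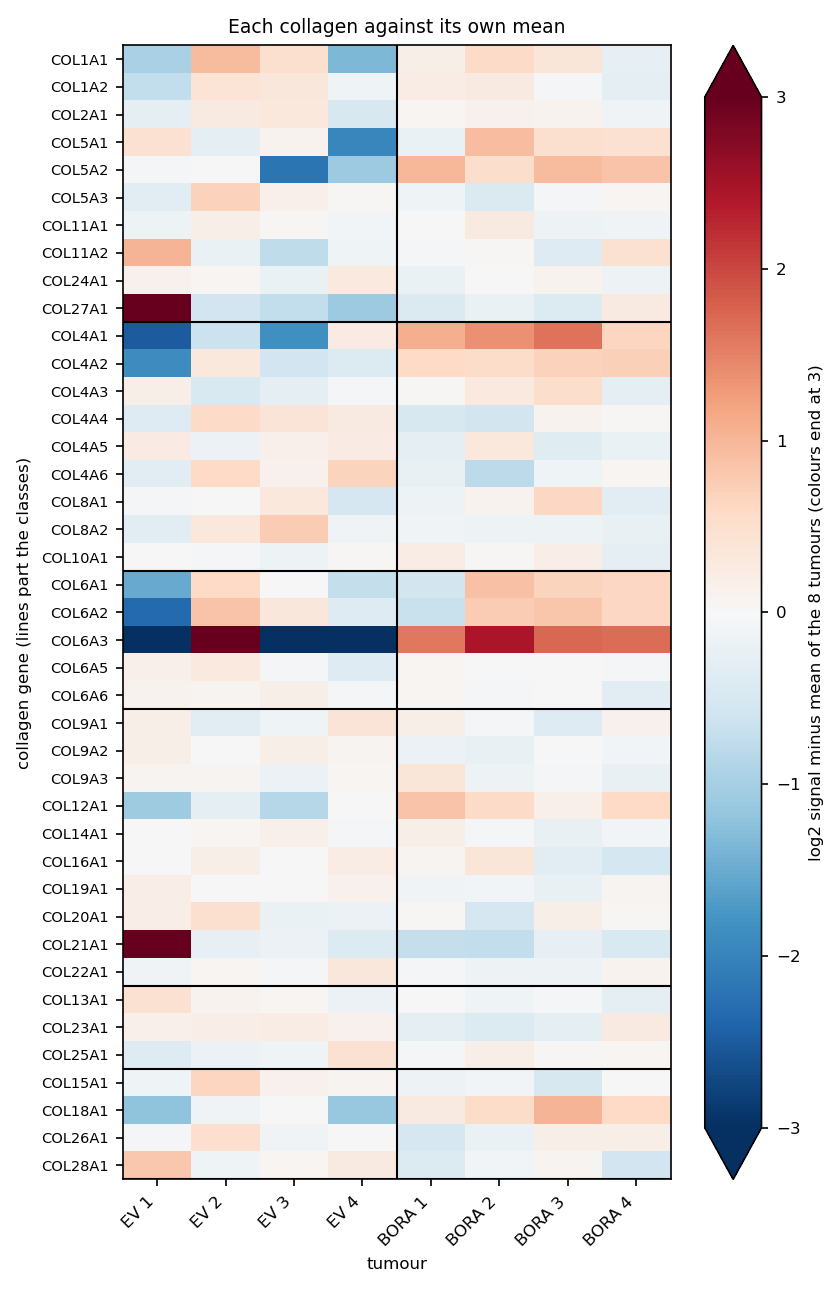
Signal of the 41 collagen genes in each of the 8 tumours, as the difference from the gene's mean over the 8 arrays on the log2 scale, with lines between the classes and colours that end at 3 in either direction. COL6A3 is high in all BORA tumours and in EV replicate 2, and COL27A1 and COL21A1 are high in EV replicate 1.

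Among the enzymes and chaperones that hydroxylate, glycosylate and fold collagen, 0 of 16 measured genes passed the adjusted test in limma on 8 or 7 arrays. At an unadjusted p under 0.05 in limma, 4 were higher (25%, beside 7.37% of all clusters) and 0 lower (beside 7.17%) on 8 arrays. On 7 arrays 4 were higher too (25%, beside 7.7%) and 0 lower (beside 7.62%). The median log2 difference of the 16 genes on 8 arrays was 0.19, beside -0.026 over all clusters. P3H1, a prolyl 3-hydroxylase, read 12.15, 12.07, 11.88 and 12.09 in BORA tumours and 11.43, 11.61, 11.46 and 11.10 in EV tumours, with no overlap and a difference of 0.65 (limma adjusted p = 0.156). SERPINH1, the collagen chaperone HSP47, read 12.06, 11.85, 11.39 and 11.46 against 8.74, 10.75, 11.36 and 11.01. Its difference of 1.22 (limma adjusted p = 0.313) was 0.65 without EV replicate 1 (limma adjusted p = 0.197). P4HB, the shared subunit of prolyl 4-hydroxylase, differed by 0.46 (limma adjusted p = 0.241), and P3H2 by 0.93 (limma adjusted p = 0.297).

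In procollagen export and processing, 0 of 12 passed on 8 or 7 arrays. At an unadjusted p under 0.05 in limma, 2 were higher (16.7%, beside 7.37% of all clusters) and 2 lower (16.7%, beside 7.17%) on 8 arrays. On 7 arrays 1 was higher (8.33%, beside 7.7%) and 2 lower (16.7%, beside 7.62%). SEC23A and SEC24D, coat proteins of the vesicles that carry procollagen out of the endoplasmic reticulum, differed by 0.75 (limma adjusted p = 0.293) and 0.64 (limma adjusted p = 0.309). PCOLCE2, an enhancer of the proteinase that trims the C-terminal end, read 7.58, 7.65, 7.80 and 7.35 in BORA tumours and 8.70, 8.19, 8.48 and 8.08 in EV tumours. These groups did not overlap, and the difference was -0.77 (limma adjusted p = 0.151). PCOLCE2 was above background in 2 BORA tumours and in all 4 EV tumours, so the size of this difference is uncertain. ADAMTS2, which trims the N-terminal end, differed by -0.60 (limma adjusted p = 0.186) with no tumour above background.

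Of 6 crosslinking genes and 10 collagen receptors measured, none passed the adjusted test, and none had an unadjusted p under 0.05 on 8 arrays in limma. Over all clusters, 7.37% were higher and 7.17% lower at that threshold. LOXL1, a lysyl oxidase, and PXDN, the peroxidase that crosslinks type IV collagen, differed by 0.79 (limma adjusted p = 0.606) and 0.59 (limma adjusted p = 0.615). ITGA2, a subunit of an integrin receptor for collagen, differed by -1.35 (limma adjusted p = 0.504), and EV replicate 1 read 13.64 while EV replicates 2 to 4 read 9.09 to 10.73. Without that array the difference was -0.38.

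**Figure D5:**
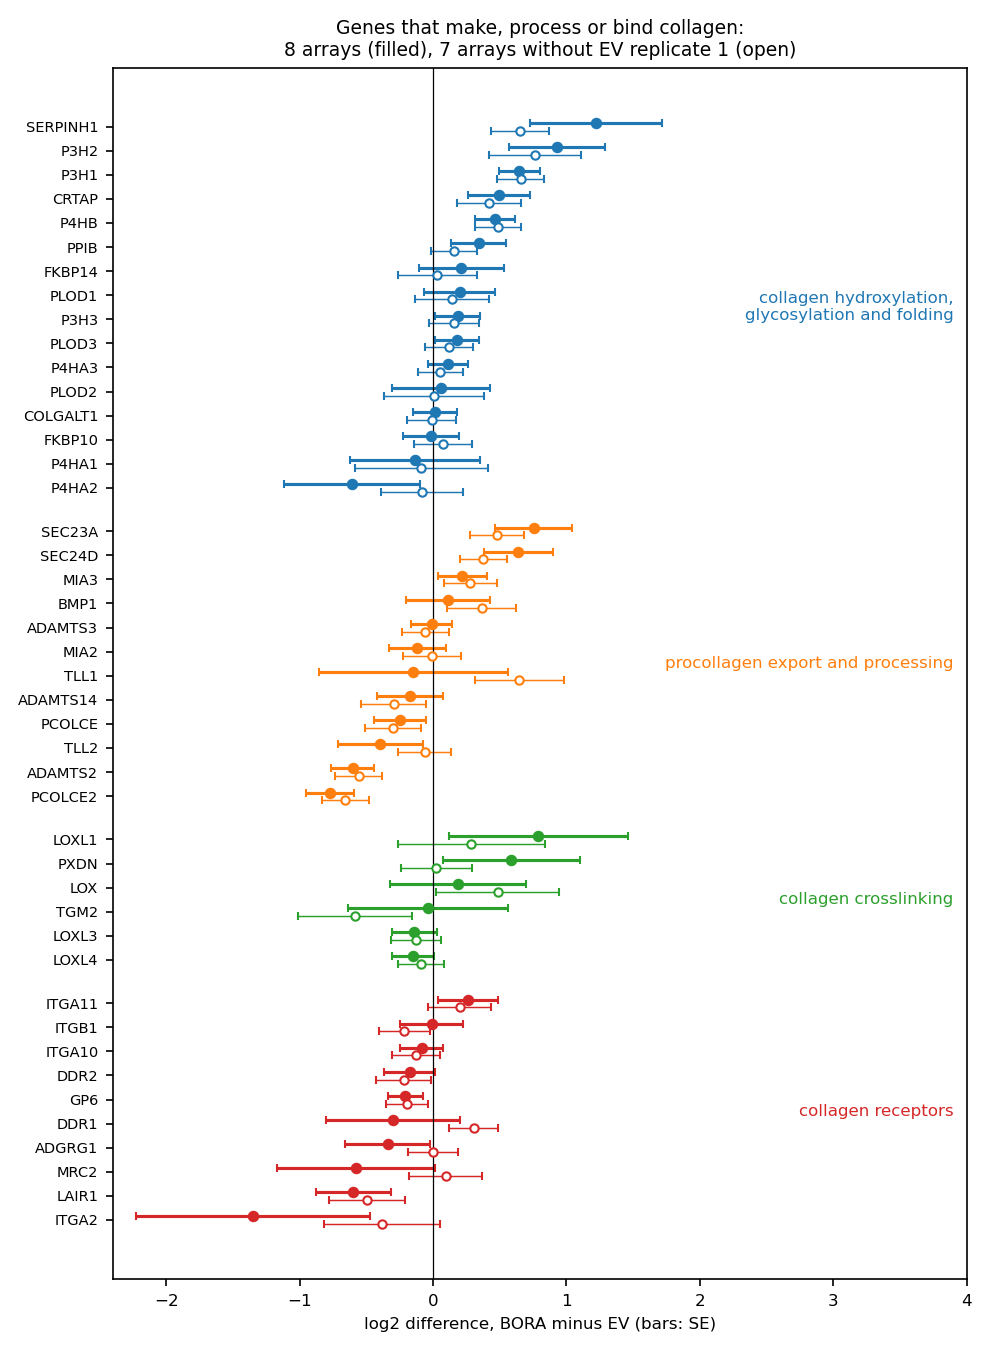
Log2 difference, BORA minus EV, of the measured genes that modify, export, crosslink or bind collagen, coloured by list, on 8 arrays (filled points) and on 7 arrays without EV replicate 1 (open points), with bars of 1 SE. On 8 arrays SERPINH1 at 1.22 and ITGA2 at -1.35 mark the ends.

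Markers of other cell types were read on the same arrays. Of the 8 endothelial markers, PECAM1 read 7.86, 8.24, 7.78 and 8.55 in BORA tumours and 5.90, 6.37, 6.40 and 7.54 in EV tumours, a difference of 1.56 (limma adjusted p = 0.137). CDH5 read 8.30, 8.18, 7.03 and 7.38 against 4.89, 6.56, 4.48 and 5.86, a difference of 2.28 (limma adjusted p = 0.129). PECAM1 was above background in 3 BORA tumours and CDH5 in 2, and neither in any EV tumour, so the sizes of both differences are uncertain. The other 6 markers, VWF, KDR, TEK, TIE1, CLDN5 and EMCN, were above background in no tumour and had differences below 0, from -0.49 to -0.062. The median of the 8 markers was -0.21. Their summed linear signal ran from 601.8 to 863.8 in BORA tumours and from 404.8 to 603.5 in EV tumours. In BORA tumours most of that sum came from PECAM1 and CDH5. Endothelial cells make type IV and type XVIII collagen, and their part in the COL4A1, COL4A2 and COL18A1 values was not tested.

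Of the 9 fibroblast markers, PDGFRA, PDGFRB, DCN, THY1 and DPT were above background in no tumour. At an unadjusted p under 0.05 in limma on 8 arrays, 0 were higher (beside 7.37% of all clusters) and 3 lower (33.3%, beside 7.17%), and those 3, PDGFRA, THY1 and DPT, were at background throughout. On 7 arrays LUM and FBLN1 were higher (22.2%, beside 7.7%) and PDGFRA and THY1 lower (22.2%, beside 7.62%). LUM, the small matrix proteoglycan lumican, read 10.22, 10.42, 9.26 and 10.94 in BORA tumours and 11.83, 8.48, 9.25 and 6.70 in EV tumours. Its difference was 1.14 on 8 arrays (limma adjusted p = 0.576) and 2.07 on 7 (limma adjusted p = 0.112), where the groups did not overlap. FAP and FBLN1 differed by 0.68 and 0.56 on 8 arrays and were above background in 1 and 2 BORA tumours and in no EV tumour. ACTA2, the remaining marker above background in any tumour, had a difference below 0 in both fits. The median difference of the 9 markers was -0.35 on 8 arrays and -0.39 on 7. The summed linear signal of the 9 markers ran from 1578 to 2885 in BORA tumours, from 929 to 2356 in EV replicates 2 to 4, and was 4926 in EV replicate 1.

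Of the 6 leukocyte markers, PTPRC, the common leukocyte antigen CD45, read 10.83, 9.68, 10.96 and 10.09 in BORA tumours and 6.91, 12.19, 12.24 and 12.94 in EV tumours. It was the single gene of the marker and pathway lists that passed the test in either fit: it was lower in BORA tumours on 7 arrays, with a difference of -2.07 (limma adjusted p = 0.0194). On 8 arrays the difference was -0.68 (limma adjusted p = 0.803). CD68, the only other leukocyte marker above background in any tumour, went the other way. It differed by 0.35 on 8 arrays and 0.38 on 7, while the other 5 markers lay below 0 in both fits. The 6 markers summed to 3124 to 4862 in BORA tumours, 6404 to 9457 in EV replicates 2 to 4 and 1942 in EV replicate 1, with CD14, CSF1R, LYZ and ITGAM above background in no tumour. In EV replicates 2 to 4 most of that linear sum came from PTPRC, so the sum largely repeats the PTPRC values. The 8 squamous epithelial markers had a summed signal of 355700 in EV replicate 1, while EV replicates 2 to 4 reached 8912 to 16570 and BORA tumours 7445 to 33480. The 7 ovarian and epithelial markers summed to 99520 to 120500 in BORA tumours and 60280 to 208200 in EV tumours, with PAX8 and EPCAM above background throughout and MUC16 and WT1 in none. The part of these cells in the collagen values was not tested, and in whole tumours fewer cells of a type and less RNA per cell cannot be told apart.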

How the data were processed

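The deposited table holds 1 log2 signal per transcript cluster and array, made by the authors. The submitters' processing notes name Affymetrix Expression Console. Neither the log base nor the normalization is given in the sources used here, and log2 was read from the range of the values. The row identifiers are those of a different Affymetrix human array than the Human Gene 1.0 ST named in the series text. Of 24351 rows, 2903 were control rows and 3739 had no gene in the annotation. The 17709 clusters with 1 symbol, named through GEO's platform annotation, were fitted together with limma 3.58.1 (R 4.3.3; lmFit, eBayes), BORA against EV, and p-values were adjusted by Benjamini-Hochberg over all of them (threshold 0.05). Where a symbol had several clusters, the brightest was used. Array medians lay between 6.96 and 7.07, and 4 arrays per group limit the precision. The fit was checked on simulated data. No 2 arrays shared more than 0.0123% of their values.

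The members, classes and marker lists were chosen with earlier results of these data known. Values in every tumour were given for collagens with an unadjusted p under 0.05 in either fit, for the member of each class with the largest difference, and for up to 4 genes of each other list. COL1A1, COL1A2, COL6A1, COL6A2, COL9A2 and COL21A1 were added for comparison. Alternatives changed the scaling, weights, moderation, filter, rows tested, cluster choice, threshold, replicate block and arrays used. Motif shares were counted over the RefSeq promoter table.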

Additional observations from a re-analysis of the deposited data

Results flagged for a closer look

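In 7 of 82 groups of 4 tumours (41 genes in each of 2 groups), 1 tumour's gap to its nearest neighbour exceeded Dixon's 95% critical value as a share of the group's range, and chance flags about 1 in 20 groups. Among EV tumours, COL6A3 in replicate 2 was the highest at 12.68 against 4.49 to 5.32 (gap 0.898 of the range). COL27A1 in replicate 1 was the highest at 13.15 against 8.88 to 9.38 (0.882), and COL21A1 in replicate 1 at 7.20 against 3.80 to 4.03 (0.932). COL26A1 in replicate 2 was the highest at 6.44 against 5.83 to 5.91 (0.876), and COL9A3 in replicate 3 was the lowest at 4.35 against 4.59 to 4.61 (0.957), both below background. Among BORA tumours, COL6A2 in replicate 1 was the lowest at 12.21 against 13.51 to 13.71 (0.864), and COL6A3 in replicate 2 was the highest at 11.14 against 10.25 to 10.39 (0.836).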

How the results depend on the processing

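COL4A1, COL4A2, COL5A2, COL12A1 and COL18A1 kept differences above 0 in every alternative run, at least 0.86 on 8 arrays and 0.66 on 7. In these genes every BORA tumour lay above every EV tumour, so leaving out or weighting arrays could not change the sign. Only the sizes are informative there. The counts of collagens called lower (0) held throughout, and the counts of genes without overlap that were higher stayed within 1.5 times the main count. Leaving out an array can only keep or add genes without overlap, so those runs do not test this count. With the replicate block, 0 collagens were called in either comparison and the medians were -0.066 (8 arrays) and -0.081 (7 arrays). No label says that the replicate numbers pair the tumours. Deviations of same-numbered tumours correlated by -0.11, 0.039, 0.071 and -0.019, and those of differently numbered tumours by -0.18 to 0.17. With 4 tumours per group these values cannot tell whether tumours were paired.

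Leaving out 1 array in turn, the count called higher ran from 0 to 1 on 8 arrays (COL6A3, without EV replicate 2) and from 0 to 3 on 7 (COL5A2, COL4A2 and COL6A3, without EV replicate 2). COL4A1 was called on 7 arrays without EV replicate 4 (limma adjusted p = 0.0114). Each of these calls came with the gene's brightest EV tumour left out, which can only raise the difference. With array weights 1 collagen was called on 7 arrays, and at a threshold of 0.10 there were 2. The count without overlap that was lower ran from 1 to 4 and from 4 to 11, and was 0 under quantile normalization (8 arrays) and 0 with dim clusters left out (both). Groups separate more easily when an array is left out. The shares of all clusters in these runs are not given, so none of these counts is read as a result about collagens. The median ran from -0.11 to -0.021 and from -0.11 to -0.024. It was 0.0093 and 0.029 under quantile normalization, -0.12 and -0.090 after centring on array medians, and -0.10 with array weights on 7 arrays. With dim clusters left out, which leaves 12 collagens, it was 0.79 and 0.53, beside 0.11 and 0.086 for all such clusters. COL5A2 and COL6A3 passed that filter through the BORA tumours, so it favours differences above 0 and these medians are a description only. The cause of the other moves was not tested. Of the 6 collagens with an unadjusted p under 0.05 on 8 arrays, leaving out 1 array changed the log2 difference by over 1.5 times for COL18A1 on 7 arrays (0.66 without EV replicate 4) and for COL6A3 (5.66 on 8 arrays without EV replicate 2, and 1.53 to 5.63 on 7). COL6A3 was 1.99 with array weights on 8 arrays.

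Signs changed in 36 of 709 gene values on 8 arrays and 38 of 668 on 7, in genes whose difference was at most 0.39 in size and that were called in no setting. On 8 arrays these were, under quantile normalization, COL1A2 (-0.014), COL2A1 (-0.027), COL24A1 (0.0093), COL6A5 (0.10), COL9A1 (0.057), COL9A3 (0.12) and COL14A1 (0.058). After centring they were COL11A1 (-0.047) and COL11A2 (-0.013). With array weights they were COL1A2 (-0.16), COL2A1 (-0.045), COL11A1 (-0.050), COL27A1 (0.24) and COL9A1 (0.050). On 7 arrays, quantile normalization turned COL2A1 (-0.095), COL11A1 (0.095), COL24A1 (0.020), COL9A1 (0.094), COL9A3 (0.14) and COL14A1 (0.040). Centring turned COL2A1 (-0.043) and COL25A1 (-0.032), and array weights turned COL1A1 (-0.11), COL2A1 (-0.082), COL6A2 (-0.0079), COL6A5 (-0.058) and COL9A1 (0.074). Leaving out 1 array gave, on 8 arrays, COL1A2 -0.17 to 0.21, COL2A1 -0.050 to 0.21, COL11A1 -0.085 to 0.066, COL11A2 -0.21 to 0.38, COL27A1 -0.81 to 0.61, COL8A1 -0.055 to 0.26, COL6A5 -0.13 to 0.097, COL9A1 -0.18 to 0.055, COL9A3 -0.15 to 0.044 and COL20A1 -0.23 to 0.0049. On 7 arrays it gave COL1A1 -0.50 to 0.65, COL2A1 -0.25 to 0.14, COL11A1 -0.13 to 0.026, COL8A1 -0.097 to 0.32, COL6A2 -0.21 to 0.47, COL6A5 -0.11 to 0.22, COL9A1 -0.17 to 0.18, COL9A3 -0.13 to 0.067, COL20A1 -0.22 to 0.12 and COL25A1 -0.092 to 0.22.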
